A study of Mus musculus with 6 samples.

Results

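The SLC25 family is the set of carrier proteins that move nucleotides, phosphate, carboxylates, amino acids, cofactors and protons across the inner mitochondrial membrane. The table of quadriceps muscle values listed 36 of its genes among 11768 genes. They were chosen by name alone: 34 carried an Slc25a symbol, and Ucp2 and Ucp3 belong to the uncoupling protein branch of the same family. A further 13 family genes found in RefSeq, among them Ucp1, Slc25a13 and Slc25a31, were not analysed here.

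The study compared muscle of floxed mice, labelled Control f/f, with muscle labelled mDrp1HET, a heterozygous knockout of Drp1 restricted to muscle that the submitters also call Drp1-KD. Drp1, encoded by Dnm1l, is the dynamin-related protein that divides mitochondria. All mice ate normal chow, and the labels write f/f, for floxed alleles, only for the Control group. The labels give neither age nor sex, do not spell out the promoter that drives the deletion (the library codes hold the letters mck, unexplained), and do not say that each library came from a separate animal, so p-values here measure the spread between these libraries. Whole muscle was homogenised, so fewer cells of a type and less RNA per cell cannot be told apart.

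Each group had 3 columns of log2 CPM, the log2 of reads after scaling every library to an equal total. The columns labelled Control 1 and mDrp1HET 3 held a single library: the reads of the first were exactly double those of the second in 11334 genes (96.3%), and no SLC25 member differed by more than 0.00037 log2 CPM between them. This shared library cannot be placed in either group, so each comparison is given both as labelled, with 3 columns a group, and over the 4 remaining libraries, Control 2 and 3 against mDrp1HET 1 and 2. In the labelled difference the shared library cancels out, leaving the 4-library difference reduced by a nearly constant factor. Agreement of the comparisons in sign or order is therefore fixed by construction. The labelled fit also treats the copies of a single library as independent columns. The reads behind the separate libraries summed to 10394761 in mDrp1HET 2, 15782298 in mDrp1HET 1, 25019293 in Control 3 and 28664508 in Control 2. Both mDrp1HET libraries of the 4-library comparison were thus shallower than both Control libraries. For the shared library the reads summed to 64728022 in the Control 1 column and 32372360 in the mDrp1HET 3 column, so its depth is uncertain. The fewest reads behind any SLC25 member value were 19, for Slc25a35 in mDrp1HET 2. Fast-fibre genes led the tissue, with Myh4 at 15.31 to 16.44 log2 CPM. Dnm1l itself was not detectably lower, at 6.95 and 6.87 log2 CPM in Control 2 and 3 against 7.30 and 6.73 in mDrp1HET 1 and 2, a difference of 0.11 log2 (95% interval -0.40 to 0.62).

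Carriers of this family share a fold of repeated transmembrane modules and usually exchange one solute for another. In muscle the ADP/ATP and phosphate carriers feed ATP synthase, the aspartate/glutamate and oxoglutarate carriers form the malate-aspartate shuttle that brings reducing power from cytosolic NADH into mitochondria, and UCP3 is the uncoupling protein typical of skeletal muscle. They are made in the cytosol and inserted by the TIM22 machinery.

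The family as a whole differed little between the groups relative to other genes. In the 4-library comparison the median log2 fold change, mDrp1HET over Control, was 0.15 over the 36 members and 0.20 over all genes, and 17 members lay above the all-gene median and 19 below it. As labelled, the medians were 0.10 and 0.13. Because the median of all genes stood 0.20 above 0, differences are also given relative to it; after each library was centred on its own median, the medians became -0.02 for members and 0.04 for all genes, and the number of members above 0 fell from 24 to 17.

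No SLC25 gene passed an adjusted p of 0.05 (limma, two-sided, Benjamini-Hochberg over all 11768 genes) in either comparison, against a background of 0% of all genes as labelled and 0.187% over 4 libraries. At an unadjusted p under 0.05 in limma, 1 member was higher and 0 lower as labelled, where 3.04% of all genes were higher and 0.858% lower. Over 4 libraries 4 members (11.1%) were higher and 0 lower, beside 13.3% and 3.26% of all genes. The member counts changed with the scaling. At the same threshold over 4 libraries, 1 member was higher and 2 were lower after median centring. After quantile normalization 2 were higher and 2 lower. The shares of all genes were not counted under either scaling, so no change particular to the carriers is read from these counts. A shift of the carriers alone thus cannot be told from a shift of all genes. The groups did not overlap in 12 members that were higher in mDrp1HET (33.3%, background 38.6%) and in 3 that were lower (8.33%, background 11.3%). Each member share in the 4-library comparison was below its background, but these shares rest on counts of only 0 to 12 members. Whether any share differed from its background was not tested, so no pattern of the family is read from them.

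**Figure D1:**
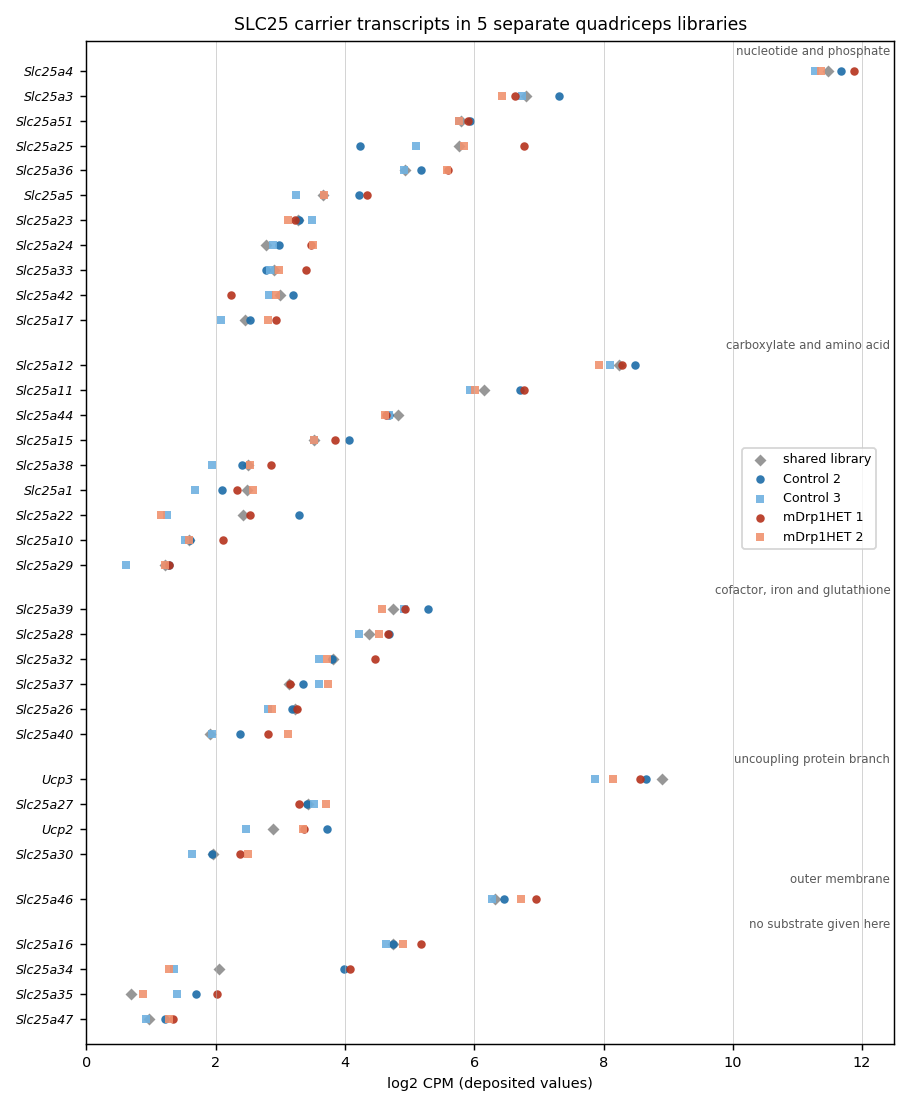
Deposited log2 CPM (horizontal axis) of the SLC25 genes reported by name in the 5 separate libraries, grouped by what they carry and ordered by mean level within a class; diamonds are the shared library, blue Control 2 and 3, red mDrp1HET 1 and 2. Slc25a4 stood far to the right at 11.27 to 11.87, and Slc25a34 and Slc25a22 were spread widely within each group.

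A single carrier made up most of the family's reads. Slc25a4, the ADP/ATP carrier of heart and muscle known as ANT1, held 66.0% to 70.1% of all SLC25 reads in the separate libraries. The family's summed level was 4836 and 3598 CPM in Control 2 and 3, 5344 and 3867 CPM in mDrp1HET 1 and 2, and 4294 CPM in the shared library. The high library of each group lay above the low library of the other, so the group ranges of the sum overlapped. In log2 CPM Slc25a4 was 11.67 and 11.27 in Control 2 and 3, 11.87 and 11.36 in mDrp1HET 1 and 2, and 11.47 in the shared library. These ranges overlapped too, and the 4-library difference of 0.15 (SE 0.26, 95% interval -0.43 to 0.72, adjusted p = 0.803 in limma) became -0.02 after median centring.

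Per kilobase of exon, Slc25a4 averaged 10.29 log2 CPM per kb over the 5 libraries, Ucp3 6.78, Slc25a12 5.34, Slc25a11 5.23, Slc25a3 4.31 and Slc25a46 4.11. Slc25a4 in its lowest library (10.03) lay above Ucp3 in its highest (7.25), and Ucp3 in its lowest (6.21) above Slc25a12 in its highest (5.61). The next neighbours, Slc25a12 with Slc25a11 and Slc25a3 with Slc25a46, overlapped between libraries and are not separable in this order. At the other end stood Slc25a40 at -0.64 log2 CPM per kb. Slc25a5, the ubiquitous ADP/ATP carrier ANT2, lay 6.94 to 7.51 log2 CPM per kb below Slc25a4 within each library; near-identical pseudogene copies make its count uncertain.

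Among carriers of nucleotides and phosphate, Slc25a25 showed the greatest difference of the family. It encodes a calcium-regulated carrier that exchanges ATP-Mg for phosphate and so adjusts the adenine nucleotide pool of the matrix, and it lies at chr2:32414487-32451470 (GRCm38.p6, RefSeq). Its level was 4.23 and 5.10 log2 CPM in Control 2 and 3, 6.77 and 5.84 in mDrp1HET 1 and 2, and 5.77 in the shared library. Both mDrp1HET libraries were above both Control libraries, and the shared library fell between the groups, just under mDrp1HET 2. The 4-library difference was 1.64 log2 (SE 0.34, 95% interval 0.89 to 2.39), or 1.44 above the all-gene median, with an adjusted p of 0.0768 in limma. As labelled it was 1.09 (SE 0.38, adjusted p = 0.753 in limma). No other member had an unadjusted p under 0.05 in limma as labelled, where that of Slc25a25 was 0.0172. The labelled value was 0.69 without Control 2 (unadjusted p = 0.059 in limma), 0.77 without mDrp1HET 1 (0.0877) and 0.63 with array weights (0.0847). The 4-library value was 2.08 without Control 3, 1.18 without mDrp1HET 1, 2.10 without mDrp1HET 2 and 1.205 without Control 2. Each of these 4-library leave-outs has a lone library in a group, assumed to vary like the others. Its exons overlap Naif1 on the opposite strand over 379 bases, and no source used here says whether reads were counted by strand.

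The promoters of the nucleotide carriers Slc25a25 and Slc25a36 and of the orphan carrier Slc25a34 are shown because they held a motif that was searched for, a choice made after the matches were seen. RefSeq (GRCm38.p6) gave 33 windows, each from 250 bases before to 50 bases after a transcript start, for 27 of the 36 members. The cAMP response element TGACGTCA, which reads the same on both strands, stood in 588 of 32851 windows of all genes (1.79%), and in 2 of the 33 member windows, those of Slc25a25 and Slc25a36. The estrogen-related receptor motif AAGGTCA, or TGACCTT on the other strand, stood in 4.72% of all windows and in 1 member window, that of Slc25a34. The NRF1 core GCGCATGCG, or CGCATGCGC, stood in 1.75% of all windows and in 0 member windows. Capitals mark the motif, and each sequence is given 5′ to 3′ on the minus strand that its gene uses.
Slc25a25 at chr2:32424017-32424316: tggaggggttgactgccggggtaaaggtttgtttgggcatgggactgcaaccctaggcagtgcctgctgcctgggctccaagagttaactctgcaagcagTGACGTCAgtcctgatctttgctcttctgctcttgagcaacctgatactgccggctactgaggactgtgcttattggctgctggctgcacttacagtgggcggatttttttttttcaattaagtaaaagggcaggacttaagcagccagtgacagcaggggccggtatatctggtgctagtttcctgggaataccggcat
Slc25a36 at chr9:97110992-97111291: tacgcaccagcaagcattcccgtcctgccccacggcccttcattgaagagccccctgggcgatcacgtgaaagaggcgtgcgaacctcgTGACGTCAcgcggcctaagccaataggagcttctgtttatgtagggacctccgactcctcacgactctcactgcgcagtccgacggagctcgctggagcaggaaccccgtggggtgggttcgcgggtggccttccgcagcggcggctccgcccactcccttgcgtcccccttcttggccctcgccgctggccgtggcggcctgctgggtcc
Slc25a34 at chr4:141623785-141624084: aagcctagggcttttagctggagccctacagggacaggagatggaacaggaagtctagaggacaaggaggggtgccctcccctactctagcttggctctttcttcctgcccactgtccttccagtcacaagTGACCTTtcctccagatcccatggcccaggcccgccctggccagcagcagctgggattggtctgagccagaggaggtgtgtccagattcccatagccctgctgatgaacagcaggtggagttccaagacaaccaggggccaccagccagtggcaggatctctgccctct
The Slc25a25 window is 1 of 3 that RefSeq lists for that gene, starting inside it, and reads summed per gene do not say which start was used. The motifs are matches of letters, with no measurement of binding in these data.

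**Figure D2:**
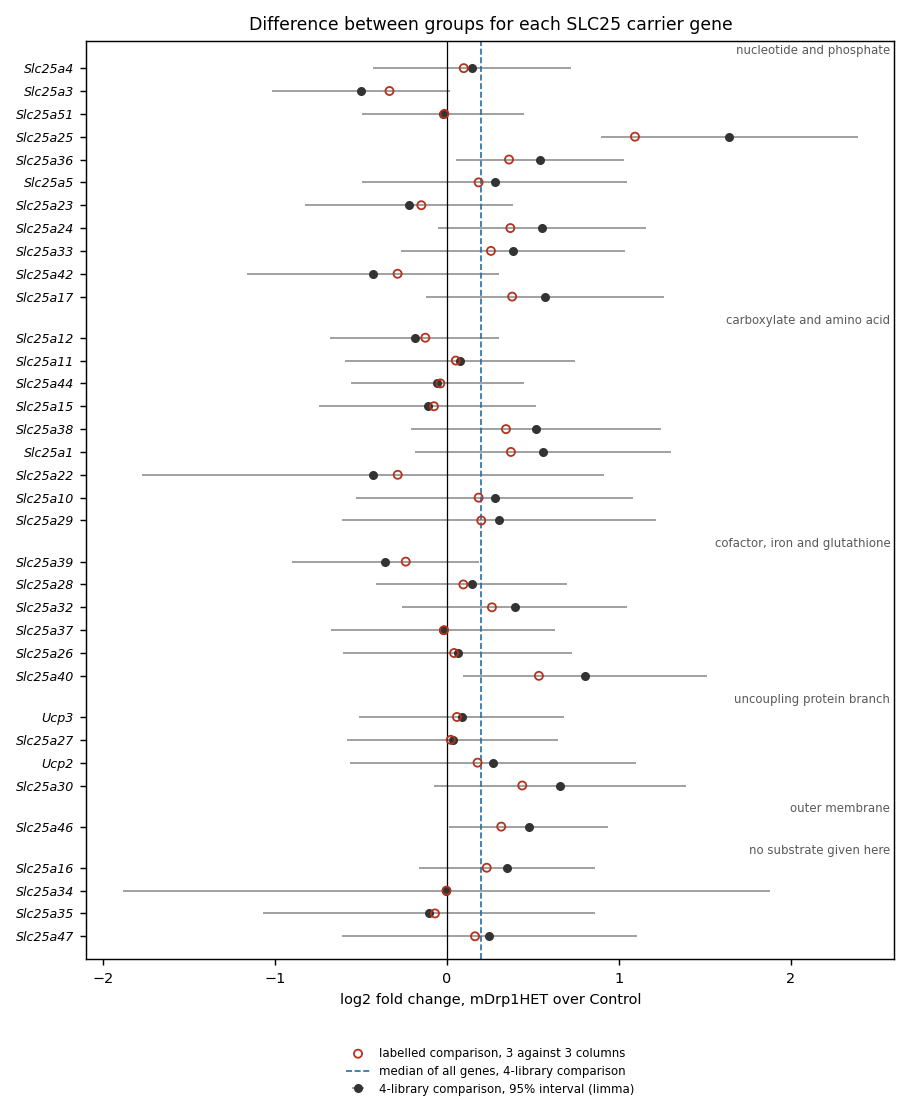
The log2 fold change, mDrp1HET over Control (horizontal axis), of each SLC25 gene reported by name: filled points with 95% intervals from limma are the 4-library comparison, open circles the labelled comparison, and the dashed line the 4-library median of all genes (0.20). The points run from -0.50 for Slc25a3 to 1.64 for Slc25a25, and most intervals include 0.

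Slc25a36 and Slc25a33 carry pyrimidine nucleotides. Slc25a36 was 5.17 and 4.91 log2 CPM in Control 2 and 3, 5.59 and 5.58 in mDrp1HET 1 and 2, and 4.93 in the shared library. The mDrp1HET libraries lay above the Control libraries and the shared library within the Control range. The 4-library difference was 0.54 (SE 0.22, 95% interval 0.05 to 1.03, adjusted p = 0.267 in limma), or 0.34 relative to all genes. Slc25a33 averaged 2.98 log2 CPM and differed by 0.39 (adjusted p = 0.531 in limma).

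The relatives of Slc25a25 in ATP-Mg and phosphate exchange are Slc25a24 and Slc25a23, and they lay on opposite sides of 0. Slc25a24 was 2.98 and 2.89 log2 CPM in Control 2 and 3, 3.47 and 3.51 in mDrp1HET 1 and 2, and 2.78 in the shared library, which was below the other 4. The difference was 0.55 (SE 0.28, adjusted p = 0.334 in limma). Slc25a23 was 3.29 and 3.50 in Control 2 and 3, 3.23 and 3.12 in mDrp1HET 1 and 2, and 3.28 in the shared library. Its groups did not overlap either, with mDrp1HET lower, at -0.22 (SE 0.28, adjusted p = 0.712 in limma). The 3 genes thus gave 1.64, 0.55 and -0.22 on the same log2 scale, and none passed the adjusted threshold.

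The lowest value of the family belonged to Slc25a3, the phosphate carrier, which supplies the phosphate that ATP synthase uses and also takes copper into mitochondria. It was 7.32 and 6.75 log2 CPM in Control 2 and 3, 6.63 and 6.43 in mDrp1HET 1 and 2, and 6.79 in the shared library. Both mDrp1HET libraries lay below all the others, and the shared library lay between the Control libraries. The difference was -0.50 (SE 0.24, 95% interval -1.02 to 0.02, adjusted p = 0.317 in limma), or -0.70 relative to all genes, and -0.67 after median centring (limma, unadjusted p = 0.00642, adjusted p = 0.188). Without Control 2 it was -0.22. Slc25a3 has alternative exons for muscle and for other tissues, which reads summed per gene do not separate.

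Slc25a42 brings coenzyme A into mitochondria. It was 3.19 and 2.82 log2 CPM in Control 2 and 3, 2.23 and 2.93 in mDrp1HET 1 and 2, and 2.996 in the shared library. mDrp1HET 1 was low and mDrp1HET 2 fell inside the Control range, with a difference of -0.43 (SE 0.34, adjusted p = 0.537 in limma). The NAD carrier Slc25a51 averaged 5.83 log2 CPM with a difference of -0.02, the peroxisomal nucleotide carrier Slc25a17 averaged 2.56 with 0.57, and Slc25a5 averaged 3.83 with 0.28. The 11 nucleotide and phosphate carriers had a median difference of 0.28, and 6 of them lay above the all-gene median.

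Of the 9 carriers of carboxylates and amino acids, 0 had an unadjusted p under 0.05 in limma over 4 libraries. At that threshold 13.3% of all genes were higher and 3.26% lower, so this 0 is not read as a trait of the class. The median difference of the class was 0.08, beside 0.20 over all genes. Slc25a12, the aspartate/glutamate carrier of muscle and brain (aralar), was 8.49 and 8.11 log2 CPM in Control 2 and 3, 8.29 and 7.93 in mDrp1HET 1 and 2, and 8.24 in the shared library. The groups overlapped, at -0.19 (SE 0.23, adjusted p = 0.701 in limma). Its shuttle partner Slc25a11, the oxoglutarate/malate carrier, was 6.70 and 5.93 in Control 2 and 3, 6.78 and 6.01 in mDrp1HET 1 and 2, and 6.15 in the shared library. Control 2 and mDrp1HET 1 were each about as far above the second library of their group (0.77 log2 in both), and the difference between groups was 0.08 (SE 0.31, adjusted p = 0.916 in limma).

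Slc25a22, a glutamate carrier, was 3.29 and 1.24 log2 CPM in Control 2 and 3, 2.53 and 1.15 in mDrp1HET 1 and 2, and 2.43 in the shared library. The spread within each group exceeded the difference between them, -0.43 (SE 0.61, adjusted p = 0.756 in limma). The remaining members of this class were the citrate carrier Slc25a1 at a mean of 2.24 log2 CPM (difference 0.56), the dicarboxylate carrier Slc25a10 at 1.68 (0.28), the ornithine carrier Slc25a15 at 3.69 (-0.11), the basic amino acid carrier Slc25a29 at 1.12 (0.30), the glycine carrier Slc25a38 at 2.45 (0.52) and the branched-chain amino acid carrier Slc25a44 at 4.69 (-0.06). Slc25a44 varied least among them within groups, and its mDrp1HET libraries lay below both Control libraries by less than 0.1 log2. Slc25a1 had an unadjusted p of 0.127, which became 0.0221 with a difference of 0.80 once the GC trend of each library was removed (limma, adjusted p = 0.324).

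Of the carriers of cofactors, iron and glutathione, the pair tied to glutathione import stood on opposite sides of 0. Slc25a40 was 2.38 and 1.94 log2 CPM in Control 2 and 3, 2.82 and 3.12 in mDrp1HET 1 and 2, and 1.91 in the shared library. Both mDrp1HET libraries were above the rest and the shared library was the lowest. The difference was 0.80 (SE 0.32, 95% interval 0.10 to 1.51, adjusted p = 0.257 in limma), or 0.60 relative to all genes. Slc25a39, its more abundant relative, was 5.29 and 4.92 in Control 2 and 3, 4.92 and 4.57 in mDrp1HET 1 and 2, and 4.75 in the shared library. mDrp1HET 1 stood just above Control 3, so the groups overlapped, and the difference was -0.36 (SE 0.25, adjusted p = 0.482 in limma), which became -0.52 after median centring (limma, unadjusted p = 0.0175, adjusted p = 0.227) and -0.11 with GC trends removed.

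Further members of that class differed by less than 0.4 log2. Slc25a26, which carries S-adenosylmethionine, averaged 3.07 log2 CPM with a difference of 0.06, and Slc25a32, the folate and FAD carrier, averaged 3.88 with 0.39. The iron importers were Slc25a28 (mitoferrin 2) at 4.49 with 0.15 and Slc25a37 (mitoferrin 1), which is highly active in red cell precursors, at 3.39 with -0.02. Alas2 and the 2 alpha-globin genes, the 3 measured of 7 red cell markers, summed to 103 and 57.3 CPM in Control 2 and 3 and 183 and 92.8 CPM in mDrp1HET 1 and 2. None of the 3 passed the adjusted threshold, which 0.187% of all genes passed over 4 libraries. At an unadjusted p under 0.05 over 4 libraries in limma 2 were higher, beside 13.3% of all genes. These were Alas2 at 1.18 (adjusted p = 0.118) and Hba-a2 at 0.91 (adjusted p = 0.226). The third, Hba-a1, differed by 0.02, and mDrp1HET 2 (3.40 log2 CPM) lay below both Control 2 (4.91) and Control 3 (4.11).

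In the uncoupling protein branch, Ucp3 was 8.66 and 7.86 log2 CPM in Control 2 and 3, 8.56 and 8.14 in mDrp1HET 1 and 2, and 8.90 in the shared library. The mDrp1HET libraries fell inside the Control range, and the shared library was the highest. The difference was 0.09 (SE 0.27, 95% interval -0.51 to 0.68, adjusted p = 0.894 in limma). Ucp2, its neighbour on chromosome 7 and a gene of many tissues and immune cells, was 3.72 and 2.47 in Control 2 and 3, 3.37 and 3.35 in mDrp1HET 1 and 2, and 2.89 in the shared library. Both mDrp1HET values again fell inside the Control range, with a difference of 0.27 (SE 0.38, adjusted p = 0.751 in limma).

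Slc25a30, a kidney-rich relative of the uncoupling proteins, was 1.94 and 1.63 log2 CPM in Control 2 and 3, 2.38 and 2.51 in mDrp1HET 1 and 2, and 1.95 in the shared library. The mDrp1HET libraries stood above the others, at 0.66 (SE 0.33, 95% interval -0.07 to 1.39, adjusted p = 0.345 in limma). Slc25a27, best known from brain, averaged 3.47 with a difference of 0.04. Of 5 brown fat markers Dio2 and Prdm16 were measured, at a summed 12.1 and 3.81 CPM in Control 2 and 3 and 8.82 and 7.62 CPM in mDrp1HET 1 and 2, with 0 called. Over 4 libraries 0.187% of all genes were called.

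Slc25a46 differs from the rest in residing in the outer membrane, where it is linked to mitochondrial fusion and lipid traffic, and it is a relative of the carriers rather than a known transporter. It was 6.46 and 6.27 log2 CPM in Control 2 and 3, 6.96 and 6.72 in mDrp1HET 1 and 2, and 6.32 in the shared library. The mDrp1HET libraries lay above the Control libraries and the shared library inside the Control range. The difference was 0.48 (SE 0.21, 95% interval 0.01 to 0.94, adjusted p = 0.289 in limma), or 0.27 relative to all genes. Members with no substrate given here were Slc25a16 at a mean of 4.84 (difference 0.35), Slc25a35 at 1.34 (-0.10), Slc25a47 at 1.14 (0.25) and Slc25a34. Exons of Slc25a35 overlap Rangrf on the opposite strand over 1151 bases.

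**Figure D3:**
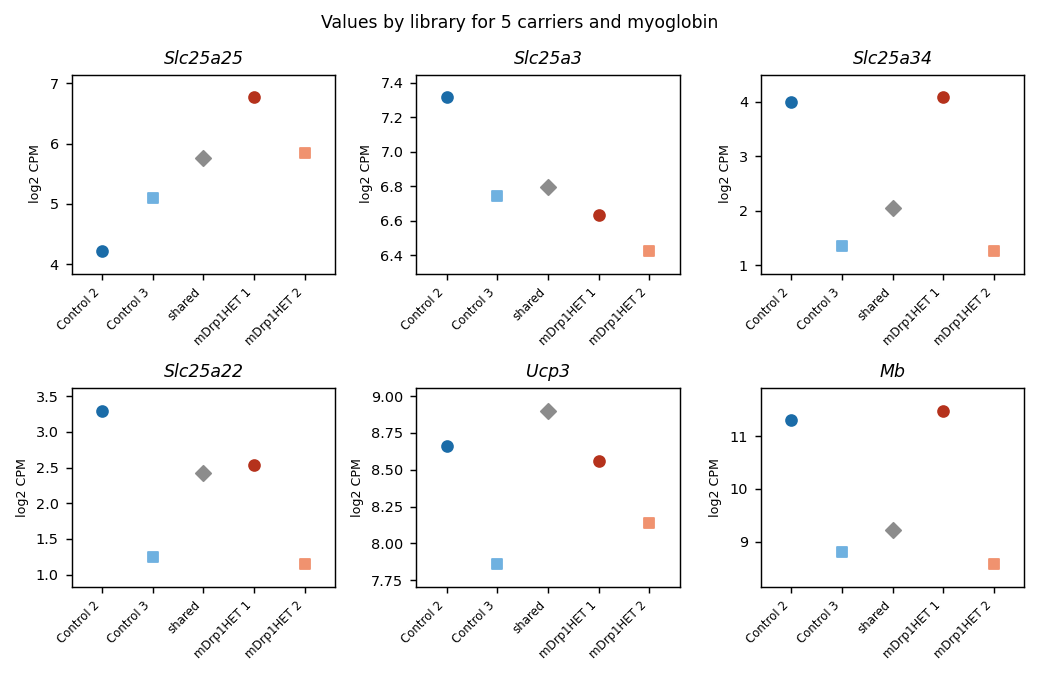
Deposited log2 CPM (vertical axes, each with its own range) of Slc25a25, Slc25a3, Slc25a34, Slc25a22, Ucp3 and myoglobin (Mb) in the 5 separate libraries; blue is Control, red mDrp1HET and grey the shared library. Slc25a25 separates the groups, Slc25a34 and Mb are high in Control 2 and mDrp1HET 1, and Ucp3 is highest in the shared library.

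The widest differences inside groups belonged to Slc25a34 and Slc25a22, both singled out after their values were seen. Slc25a34 was 3.99 and 1.36 log2 CPM in Control 2 and 3, 4.08 and 1.27 in mDrp1HET 1 and 2, and 2.05 in the shared library. A Control and an mDrp1HET library were high by nearly the same amount, and the difference between groups was 0.00 (SE 0.86, 95% interval -1.88 to 1.88). Control 2 exceeded Control 3 and mDrp1HET 1 exceeded mDrp1HET 2 by more than 1 log2 in these 2 of 36 members (5.56%), and in 89 of all genes (0.756%). In the same direction by any amount were 25 members (69.4%), against 56.1% of all genes.

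Myoglobin (Mb), the oxygen store of oxidative fibres, followed the same libraries, at 11.29 and 8.80 log2 CPM in Control 2 and 3, 11.48 and 8.58 in mDrp1HET 1 and 2, and 9.23 in the shared library. A list of 10 slow and oxidative fibre genes, added after values were seen, had 7 measured members (Myl2, Tnni1 and Tnnc1 were not analysed here). They summed to 205 and 65.5 CPM in Control 2 and 3, 850 and 87.7 CPM in mDrp1HET 1 and 2, and 73.0 CPM in the shared library, with 0 of 7 called in either comparison. Of all genes 0.187% were called over 4 libraries and 0% as labelled. Myh7, the slow myosin heavy chain, was 3.56 and 1.31 log2 CPM in Control 2 and 3 and 7.34 and 2.18 in mDrp1HET 1 and 2. Slow-fibre genes, Mb, Slc25a34, Slc25a22 and Slc25a11 were thus higher in Control 2 than Control 3 and in mDrp1HET 1 than mDrp1HET 2. In the shared library Slc25a22 (2.43 log2 CPM) stood near mDrp1HET 1 (2.53), while the slow-fibre sum stood near Control 3. Across members the Pearson correlation of these gaps between the groups was 0.60, and 0.03 without Slc25a34 and Slc25a22. The part of fibre type in the carriers' values was not tested.

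**Figure D4:**
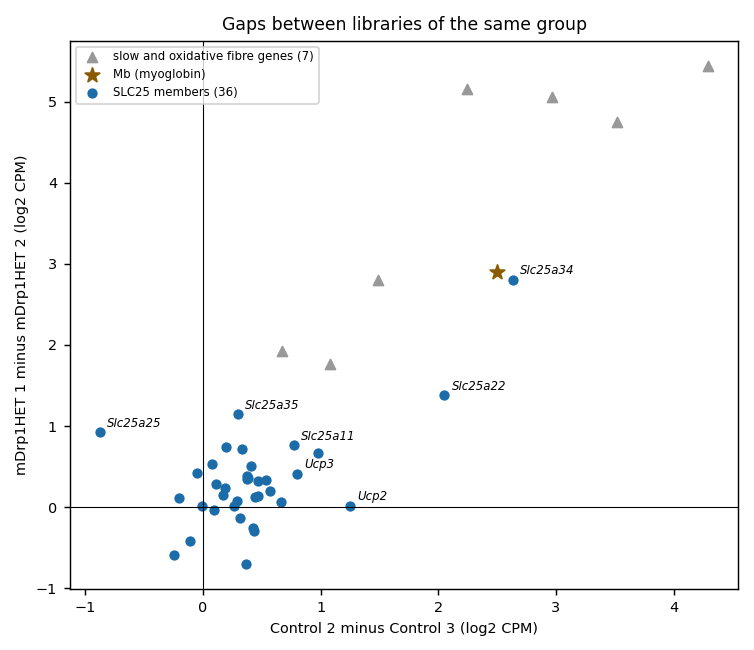
Each point is a gene: the horizontal axis is Control 2 minus Control 3 and the vertical axis mDrp1HET 1 minus mDrp1HET 2, both in log2 CPM. Most SLC25 members (blue) lie near the origin, while Slc25a34 and Slc25a22 lie toward Mb (star) and the 7 slow and oxidative fibre genes (triangles); Slc25a25 is the member farthest to the left.

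The shared library was nearer the Control mean in 23 members and nearer the mDrp1HET mean in 13. The share of all genes was not counted and the members come from the same library, so this split does not place it in a group. It lay within the range of the other 4 libraries in 29 members, below all of them in 5 and above all of them in Ucp3 and Slc25a44.

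Base composition moved with the differences. Over the 36 members the Spearman correlation between transcript GC content and the 4-library difference was -0.33, and over 11211 genes it was -0.39; the points share the same 4 libraries, and these are descriptions. Slc25a40 had a GC content of 39.4%, Slc25a36 40.7%, Slc25a46 40.7% and Slc25a24 42.5%. With the GC trend of each library removed, their differences were 0.53, 0.31, 0.24 and 0.37, and none had an unadjusted p under 0.05 in limma. Slc25a25, at 49.0% GC, stayed at 1.63 (limma, adjusted p = 0.118), and Slc25a3, at 43.6%, was -0.66 (limma, unadjusted p = 0.0167, adjusted p = 0.305). The median member then stood at 0.21 beside 0.18 for all genes, with 27 of 36 above 0.

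**Figure D5:**
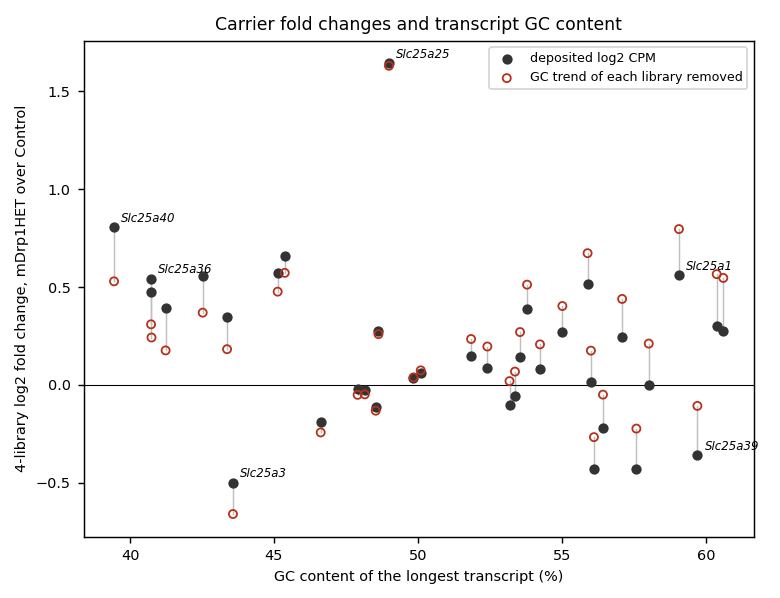
The 4-library log2 fold change of each SLC25 gene (vertical axis) against the GC content of its longest transcript in percent (horizontal axis), as deposited (filled) and after the GC trend of each library was removed (open). AT-rich members such as Slc25a40 move toward 0, GC-rich members such as Slc25a1 move up, and Slc25a25 stays in place.

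Genes that build or work beside the carriers were mostly not called. Over all genes 0.187% were called over 4 libraries and 0% as labelled, so counts of 0 in these short lists are near the background. Of 15 measured genes of the import route that inserts carriers, 0 passed the adjusted threshold in limma; the smallest p belonged to Timm8b, a small chaperone of the intermembrane space, at 5.07 and 4.63 log2 CPM in Control 2 and 3 against 6.08 and 5.69 in mDrp1HET 1 and 2 (difference 1.03, SE 0.25, adjusted p = 0.11 in limma), and next came Timm9 at 0.70. Of 18 other mitochondrial membrane transporters, 1 was called in the 4-library comparison, beside 0.187% of all genes. That gene was Mpc1, a subunit of the pyruvate carrier, which lies outside the SLC25 family. It was 7.60 and 7.13 log2 CPM in Control 2 and 3, 8.59 and 8.80 in mDrp1HET 1 and 2, and 5.45 in the shared library. Both mDrp1HET libraries were above both Control libraries, and the shared library was below all 4. Mpc1 rose by 1.33 (SE 0.22, adjusted p = 0.0463 in limma) over 4 libraries, its partner Mpc2 differed by 0.42 (adjusted p = 0.455), and as labelled 0 of the 18 were called. After median centring, or without the intensity trend, 0 of all 11768 genes were called over 4 libraries, Mpc1 included.

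Of 10 enzymes that work with the carriers in shuttles, 0 were called, and the smallest p values belonged to Mdh2 at -0.52 and Got2 at -0.60, the matrix enzymes of the malate-aspartate shuttle. The enzymes summed to 4121 and 2014 CPM in Control 2 and 3, 3176 and 1692 CPM in mDrp1HET 1 and 2, and 2304 CPM in the shared library, again highest in Control 2 and mDrp1HET 1. Of 12 measured regulators of mitochondrial genes 0 were called. Both zeros stand beside 0.187% of all genes called over 4 libraries. Ppargc1b, a coactivator, had the smallest p, at 3.33 and 2.98 log2 CPM in Control 2 and 3 and 2.61 and 1.91 in mDrp1HET 1 and 2 (difference -0.90, SE 0.34, adjusted p = 0.243 in limma), and Tfam came next at 0.36.

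Markers of some other cell types also differed between the libraries. The 9 measured of 10 macrophage markers summed to 322 and 196 CPM in Control 2 and 3 and 416 and 371 CPM in mDrp1HET 1 and 2, and the 8 fibro-adipogenic progenitor markers to 2979 and 1982 CPM against 3496 and 3817 CPM. The 10 fast-fibre and general muscle genes summed to 169714 and 170490 CPM in Control 2 and 3 and 134651 and 126135 CPM in mDrp1HET 1 and 2. Myh4, the fast myosin heavy chain, dominated that sum, at 16.27 and 16.44 log2 CPM in Control 2 and 3 against 15.31 and 15.62 in mDrp1HET 1 and 2. The median difference of the 10 genes was -0.07, and Mylpf differed by 0.56, Tnni2 by 0.23 and Ckm by 0.18. The 10 adipocyte markers gave 874 and 586 CPM against 987 and 967 CPM, the 8 endothelial markers 384 and 256 CPM against 332 and 243 CPM, the 5 measured of 6 smooth muscle and pericyte markers 286 and 136 CPM against 228 and 137 CPM, and the 5 measured of 6 Schwann cell markers 53.5 and 27.4 CPM against 53.8 and 46.4 CPM. The macrophage, progenitor and adipocyte sums were higher in both mDrp1HET libraries than in both Control libraries, and the endothelial, smooth muscle and Schwann cell sums overlapped. In the shared library the macrophage (249 CPM) and progenitor (2304 CPM) sums lay inside the Control range. Its adipocyte sum (1368 CPM) was the highest of all, so the adipocyte separation holds only without that library. Plin4, the most abundant adipocyte marker, overlapped, at 8.81 and 8.59 log2 CPM in Control 2 and 3 against 8.45 and 9.22 in mDrp1HET 1 and 2. No gene of these lists passed the adjusted threshold in limma in either comparison, beside 0.187% of all genes over 4 libraries and 0% as labelled. At an unadjusted p under 0.05 over 4 libraries, 4 of 9 macrophage, 5 of 8 progenitor and 3 of 10 adipocyte markers were higher, beside 13.3% of all genes, with 0 lower. Of the fibre genes 1 was higher and 3 were lower, beside 3.26% of all genes lower, and 1 endothelial and 1 smooth muscle gene were lower. The part of these cells, of Myh1, Myh2 and Myh4, and of depth in the values of Slc25a25, Slc25a24, Slc25a36 and Slc25a46 was not tested.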

How the data were processed

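Stranded total RNA libraries depleted of ribosomal RNA were made from quadriceps RNA with an integrity number above 7 and sequenced in 2 pools, per the labels' protocols; pools are not given per library and entered no model. FastQC, the build GRCm38 and DESeq2 1.30.0 appear in the submitters' processing notes; which aligner and counter were used is not given in the sources used here. Per the file headers, the authors deposited 1 table: its rows are genes, its 6 library columns hold log2 CPM, and a further column holds the authors' p-value, not used here. Whole reads were recovered from 100% of the deposited log2 values (tolerance 0.01 reads).

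A model with an intensity trend was fitted in limma 3.58.1 (R 4.3.3) over all 11768 genes, two-sided, with Benjamini-Hochberg adjustment and a threshold of 0.05, on all 6 columns and on the 4 without the shared library; the script was tested on simulated data. With 2 libraries a group an exact permutation could not go below p = 0.333, so none is given. Exon lengths and GC content came from GENCODE (GRCm38), with values for 11211 genes and all 36 members; positions and promoter windows came from RefSeq GRCm38.p6.

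Family members, gene lists and tests were chosen with earlier results of these data known. Values in every library are given for members past the threshold, the 6 with the smallest unadjusted p in each direction over 4 libraries, the 6 with the highest mean level, and the Ucp genes; in context lists, called genes or else the 2 with the smallest p are named. 2 family genes are not reported here, 1 of them counted among the 36.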

Additional observations from a re-analysis of the deposited data

How the results depend on the processing

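No member was called as labelled under any alternative run there. Over 4 libraries, leaving out a library in turn gave 0 to 1 called members, which was Slc25a25 without Control 3, mDrp1HET 1 or mDrp1HET 2, and a member median of -0.053 (without Control 3) to 0.40 (without Control 2). Slc25a34 changed sign with the library left out, from -1.40 without mDrp1HET 1 to 1.40 without mDrp1HET 2, and was 1.31 without Control 2; its 4-library value was 0.00, and fewer samples in each fit are the construction of these alternatives. Over 4 libraries, with median centring or quantile normalization 7 of 36 members changed sign, with GC trends removed 3, with log2(CPM + 1) or voom 1, and with a mean filter at 1 or 3 log2 CPM, no intensity trend or array weights 0. As labelled, array weights gave 6 members higher and 1 lower at an unadjusted p under 0.05 in limma, beside 1 and 0 as reported. The share of all genes under array weights was not counted. Small p-values were common there: Slc25a17 had an unadjusted p of 0.0426 but an adjusted p of 0.137 in limma. No gain particular to the members is read from these counts. None of these alternatives called a member; the filter at 3 log2 CPM kept 24 of them. The count of all genes called over 4 libraries was 22 as reported, 0 with median centring or no intensity trend, 1 with quantile normalization, 8 with GC trends removed, 51 with voom on recovered reads, and 77 to 325 with a library left out; the cause was not tested. Voom and the GC correction were chosen after seeing the data. The planned edgeR and DESeq2 fits were not run, since the deposited unit is log2. No paired analysis was possible because the labels give no replicate number that groups share. Depth limits members under about 2 log2 CPM most, such as Slc25a35 and Slc25a29.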
